A study of Homo sapiens with 5 samples.

Results

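Contacts between stretches of 1 chromosome arm that lie 10 to 50 Mb apart were examined in Hi-C data of RMG1, a human cell line derived from a clear cell carcinoma of the ovary. Hi-C ligates pieces of DNA that lie close together in the nucleus and counts the joins. The unit here is a pair of bins of 1 Mb. A pair was a member when both bins lay on the same arm of an autosome and their starts were 10 to 50 Mb apart, with arms split at a fixed position per chromosome (hg19) and chromosomes 13, 14, 15, 21 and 22 taken as 1 arm. This gave 62934 bin pairs on 39 arms, out of 193090 pairs of different bins of the same chromosome (cis pairs), or 32.6%. The rule uses positions alone, apart from the removal of bins without signal or with few contacts. It was chosen with earlier results of these data known.

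The libraries were 2 of ARID1A knockout cells (ARID1A KO, edited by CRISPR, CAPH2 wild type), 2 of CAPH2 knockdown cells (CAPH2 KD, by a short hairpin RNA, ARID1A wild type) and 1 of control cells that carried a control hairpin and were wild type for both genes. The control thus shares the hairpin with the KD cells and not the editing with the KO cells. The labels do not say whether the libraries of a group are separate cultures or clones. P-values then cover only the spread among these libraries, which may be technical. Bins of 1 Mb cannot show the state of ARID1A or CAPH2, so the labels could not be checked against the target genes.

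CAPH2, now called NCAPH2, is the kleisin subunit of condensin II, a ring-shaped motor complex that shortens chromosomes along their length and helps to keep them in separate territories. ARID1A is a DNA-binding subunit of BAF, a complex that moves nucleosomes with the energy of ATP. In interphase the contact frequency of a chromosome decreases with genomic distance, and at distances of many megabases it is patterned by compartments, in which active (A) regions meet A regions and inactive (B) regions meet B regions. Contacts within an arm at such distances therefore report both how compactly an arm is folded and how its compartments meet.

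The deposited values are a balanced contact signal, from which whole contacts could be recovered. The recovered totals were 31.4 and 32.5 megacontacts in the KO libraries, 55.7 and 85.0 in the KD libraries and 47.9 in the control. Member pairs held 1.67 and 1.47 megacontacts in the KO libraries, 3.09 and 4.63 in the KD libraries and 2.99 in the control. The median member pair rested on 22 and 19 contacts in the KO libraries, 40 and 61 in the KD libraries and 40 in the control. The KO libraries differed from each other beyond counting noise (a chi-square of 1.89 per degree of freedom over 58673 pairs with at least 10 contacts in both together). The KD libraries came close to it (1.04 over 61740 pairs, with a standard deviation of 0.0057 for counting noise alone).

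Same-arm contacts at 10 to 50 Mb took up a smaller share of cis contacts in each KO and each KD library than in the control. They made up 18.4% and 17.4% of the signal between different bins of the same chromosome in the KO libraries, 17.9% and 17.9% in the KD libraries and 19.5% in the control. The KO libraries spanned the values of the KD libraries, and the control lay above all 4. The mean was 17.9% ± 0.69 in KO (SD, n = 2), 17.9% ± 0.022 in KD (SD, n = 2) and 19.5% in the control (n = 1). On the log2 scale the difference from the control was -0.12 for KO and -0.13 for KD. In recovered contacts the shares were 18.33% (95% interval 18.305% to 18.355%) and 17.535% (17.509% to 17.561%) in the KO libraries, 18.325% (18.306% to 18.343%) and 18.31% (18.295% to 18.325%) in the KD libraries and 19.88% (19.862% to 19.903%) in the control. These exact binomial intervals (Clopper-Pearson) cover counting error only. An exact permutation test over libraries gave p = 0.333 (two-sided) for KO and for KD, each against the control, the smallest p that 2 libraries against 1 allow, and p = 1 for KO against KD, where 0.333 is the smallest.

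**Figure D1:**
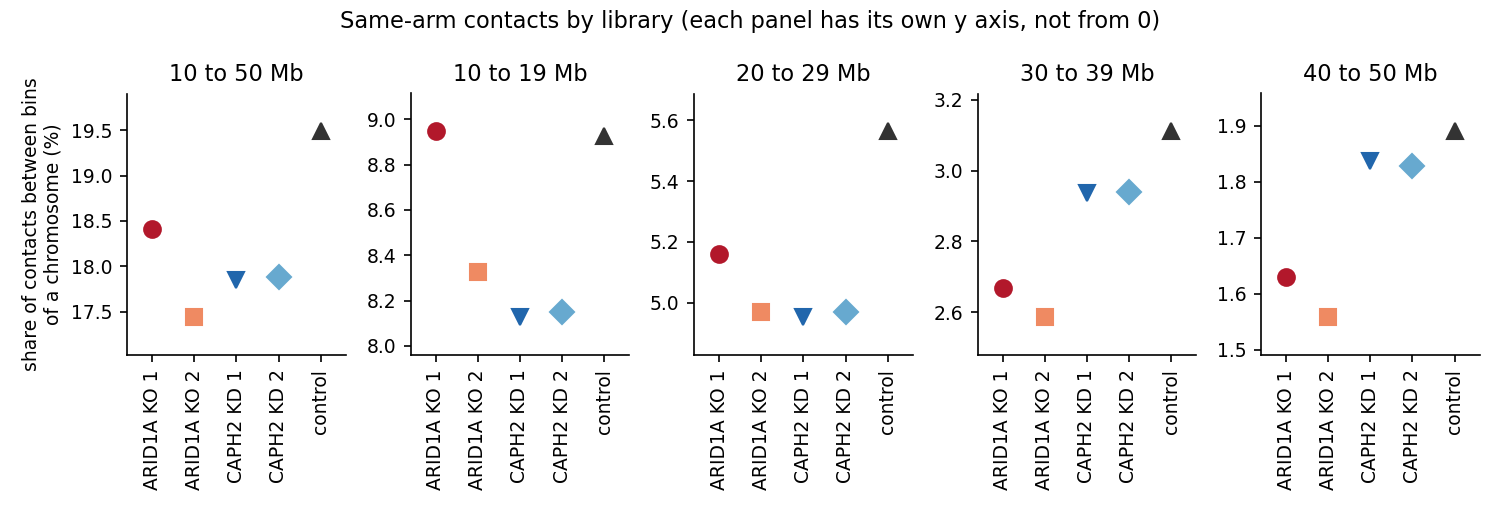
Share (%) of the signal between different bins of the same chromosome that lies in same-arm bin pairs 10 to 50 Mb apart, and in its 4 distance bands. Each point is 1 library and each panel has its own y axis, which does not start at 0. The KD libraries lie lowest, or level with the lower KO library, at 10 to 29 Mb, and the KO libraries lie lowest at 30 to 50 Mb.

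The 2 perturbations differed in the distances at which the share was low. From 10 to 19 Mb the share was 8.95% and 8.33% in the KO libraries, 8.13% and 8.15% in the KD libraries and 8.92% in the control. From 20 to 29 Mb it was 5.16% and 4.97% in the KO libraries, 4.95% and 4.97% in the KD libraries and 5.57% in the control. From 30 to 39 Mb it was 2.67% and 2.59% in the KO libraries, 2.94% and 2.94% in the KD libraries and 3.11% in the control. From 40 to 50 Mb it was 1.63% and 1.56% in the KO libraries, 1.84% and 1.83% in the KD libraries and 1.89% in the control. KO replicate 1 stood above the control in the nearest band, and both KO libraries stood below both KD libraries in the 2 farthest bands.

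Contacts at single distances were then tested with limma (all 5 libraries in 1 fit, Benjamini-Hochberg over the 100 distances from 1 to 100 Mb, threshold 0.05). An alternative setting left out the bins at strong pairs. Strong pairs had over 10 times the expected signal in the mean of all libraries, between chromosomes or at least 10 Mb apart in cis. With adjacent bins this removed 907 of the 2635 bins, and only 4 of the 2045 strong pairs were member pairs. In KO cells the share was called lower at 19 of the 41 distances from 10 to 50 Mb (46.3%) and higher at none, against 22% of all 100 distances called. Neighbouring distances of 1 library move together, while the fit pooled their spread (32.7 degrees of freedom, 2 of them from libraries), so that its p-values are too small. The called distances ran from 30 to 50 Mb without 33 and 48 Mb, with log2 changes from -0.28 to -0.22 and adjusted p from 0.033 to 0.047. Both KO libraries lay below the control at 35 of the 41 distances, all those from 16 Mb on, against 67% of the 100 distances. At 10 Mb the share was 1.21% and 1.12% in the KO libraries and 1.19% in the control, a log2 difference of -0.03 ± 0.083 (SE, adjusted p = 0.80), and the groups overlapped. At 20 Mb it was 0.641% and 0.609% in the KO libraries and 0.673% in the control, a difference of -0.11 ± 0.082 that did not pass the test (adjusted p = 0.32). At 30 Mb the KO libraries had 0.360% and 0.352% and the control 0.416% (-0.22 ± 0.082, adjusted p = 0.047). The difference was similar at 40 Mb, with 0.187% and 0.180% in the KO libraries and 0.219% in the control (-0.26 ± 0.082, adjusted p = 0.033). At 50 Mb, shares of 0.114% and 0.106% in the KO libraries stood against 0.131% in the control (-0.26 ± 0.083, adjusted p = 0.033). These calls are close to the threshold: no distance passed without the filter on bins with few contacts (adjusted p = 0.051 at 40 Mb), without the bins at strong pairs (0.055) or without either KD library (0.31), where the spread comes from the KO libraries alone.

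In KD cells both libraries lay below the control at each of the 41 distances, against 55% of the 100 distances, but none of the 41 passed the test (0% of all 100 called; 7 of the 41 had an unadjusted p under 0.05). At 10 Mb the share was 1.12% and 1.12% in the KD libraries and 1.19% in the control (-0.08 ± 0.083, adjusted p = 0.95). The gap was wider at 20 Mb, where the KD libraries had 0.587% and 0.590% and the control 0.673% (-0.19 ± 0.082, adjusted p = 0.48). At 30 Mb it was narrower again, with 0.384% and 0.387% in the KD libraries and 0.416% in the control (-0.11 ± 0.082, adjusted p = 0.68). At 40 Mb the KD libraries had 0.211% and 0.210% and the control 0.219% (-0.06 ± 0.082, adjusted p = 0.97). At 50 Mb the values were 0.127% and 0.127% in the KD libraries and 0.131% in the control (-0.05 ± 0.083, adjusted p = 0.97). The lowest value of the difference was -0.20 at 21 Mb and the highest -0.03 at 43 Mb, whereas for KO against control the lowest was -0.28 at 37 Mb and the highest -0.03 at 10 Mb.

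Set directly against each other, KO cells had less contact than KD cells at the far end of the range and, without passing the test, more at the near end. The share was called lower in KO at 17 of the 41 distances (41.5%), those from 34 to 50 Mb, and higher at none. This is below the 48% called over all 100 distances, and another 31 called distances lay outside the range, so the lower far contact of KO is not particular to 10 to 50 Mb. The log2 differences of the called distances were -0.21 to -0.16, with adjusted p from 0.029 to 0.044 (limma). Both KO libraries stood above both KD libraries at 15 of the 41 distances (36.6%), from 11 to 25 Mb, against 20% of the 100 distances. They stood below them at 24 (58.5%), from 27 to 50 Mb, against 65% of the 100 distances. At 20 Mb the log2 difference was 0.09 ± 0.067 (adjusted p = 0.27), and at 40 Mb it was -0.20 ± 0.067 (adjusted p = 0.029). No distance passed without the bins at strong pairs, without either KD library or with the KD libraries averaged to 1 sample.

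**Figure D2:**
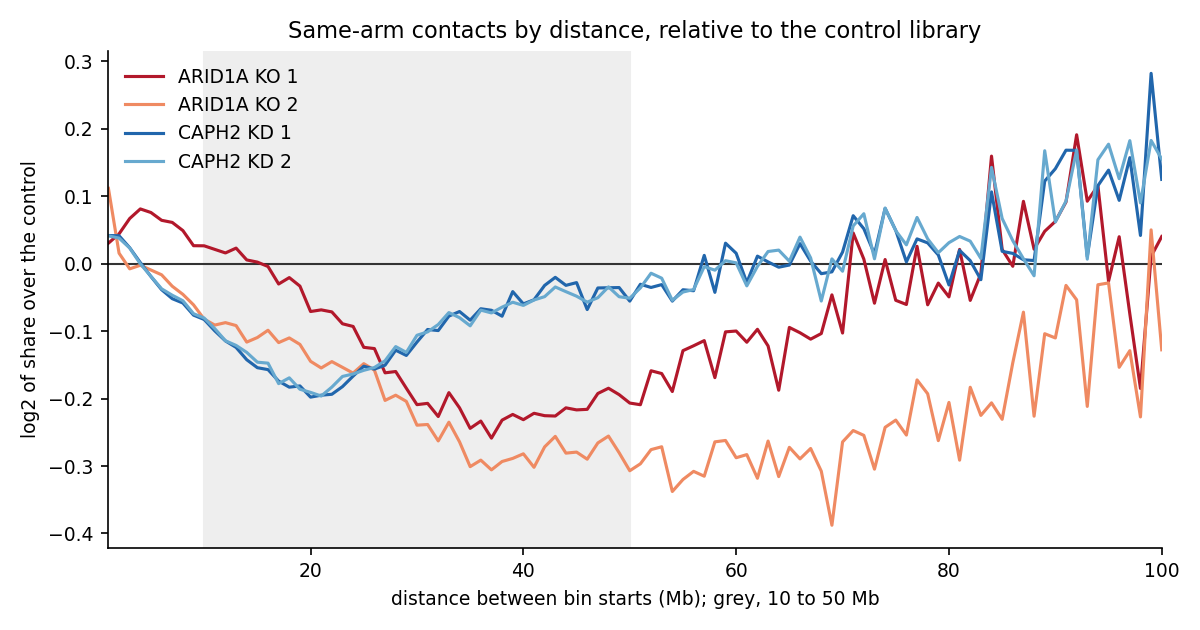
Log2 of each library's share of same-arm contacts at a distance over the control's share, for distances of 1 to 100 Mb, with 10 to 50 Mb in grey. Lines are single KO and KD libraries and the horizontal line at 0 is the control. The KD lines are lowest near 20 Mb, the KO lines are lower than the KD lines from 27 to 50 Mb, and KO replicate 1 starts above 0 at 10 Mb.

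The same shift appears as a steeper decay of contact with distance in KO cells. Per bin pair, the mean signal at 10 Mb was 5.41 and 5.02 ppm of the cis signal in the KO libraries, 5.02 and 5.03 in the KD libraries and 5.32 in the control. At 50 Mb it was 1.20 and 1.12 ppm in the KO libraries, 1.34 and 1.34 in the KD libraries and 1.39 in the control. The decay exponent, the slope of log signal per pair against log distance from 10 to 50 Mb over all arms, was -0.98 and -0.95 in the KO libraries, -0.785 and -0.791 in the KD libraries and -0.84 in the control. KO libraries had the lowest (steepest) exponents, the control lay between, and the KD libraries had the highest, with no overlap. The means were -0.97 ± 0.017 in KO and -0.79 ± 0.0043 in KD (SD, n = 2 each). The exact permutation test gave p = 0.333 (two-sided) for each of the 3 comparisons, which is the smallest it can give.

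Arm by arm, exponents could be fitted on 35 of the 39 arms, those spanning at least 30 Mb. Distances with at least 5 pairs reached 50 Mb on 22 of them and ended earlier on 13, at 26 Mb on 19q, so exponents of different arms cover different distances. Their median was -0.93 and -0.91 in the KO libraries (arms from -1.35 to -0.70 and from -1.34 to -0.66), -0.76 and -0.77 in the KD libraries (from -1.33 to -0.14 and from -1.29 to -0.19) and -0.75 in the control (from -1.17 to -0.23). Both KO libraries were steeper than the control on 33 of the 35 arms and shallower on none, and 12p and 11p were the arms where they overlapped it. By limma the exponent was lower in KO than in the control on 10 arms and higher on none (28.6% of the 35 arms tested called). Against KD it was lower in KO on 24 arms and higher on none (68.6% called). For KD against control no arm passed (0%, with 5 at an unadjusted p under 0.05): both KD libraries were steeper than the control on 18 arms, shallower on 16 and overlapped it on 1. Apart from 19q, the 16 shallower arms were all among the 22 that reached 50 Mb. The fit gave every arm the same standard error and used 70 degrees of freedom, 2 for each of the 35 arms, as if the arms of 1 library were separate samples. They share that library's errors, so its p-values are too small and its calls are no more than a way to rank arms. For the exponent over all arms, 2 libraries against 1 allow no p below 0.333. With the KD libraries averaged to 1 sample, 6 arms were called for KO against control and 3 against KD. Without the bins at strong pairs, 4 and 11 of 29 arms were called. In recovered contacts 7 arms were called for KO against control, all lower in KO, and 28 for KO against KD, of which 7 were higher and 21 lower in KO.

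Fitted over the same distances in all arms, 10 to 26 Mb, the picture of KD changed. Both KO libraries were steeper than the control on 28 of the 35 arms and overlapped it on 7, with a median difference of -0.09. Both KD libraries were now also steeper than the control on 29 arms, shallower on 3 and overlapping on 3, with a median of -0.08. Both KO libraries were below both KD libraries on 8 arms, above them on 8 and overlapped them on 19, with a median of -0.01. Over these distances KO and KD thus did not differ in 1 direction across arms. This fit was added after the data were seen and carries no test.

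The long arm of chromosome 19, a small and gene-dense chromosome rich in zinc finger genes, had the largest difference of KO from the control and from KD. Over 10 to 26 Mb the exponent of 19q was -0.78 and -0.71 in the KO libraries, -0.14 and -0.19 in the KD libraries and -0.23 in the control. The KO libraries were far below the other 3, which means that contact within 19q hardly decreased with distance in control and KD cells and did so in KO cells. The difference was -0.52 for KO against control and -0.58 when KO was set against KD, and 19q also had the lowest of the 35 differences in both comparisons when all arms were fitted over 10 to 26 Mb. With recovered contacts the difference was larger (-0.85 and -0.93). With the bins at strong pairs left out, 19q could not be fitted.

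The next called arms for KO against control were 7p, 8p, 11q and 5p, with differences of -0.33, -0.31, -0.31 and -0.30. Over 10 to 26 Mb alone they were -0.06, -0.13, -0.13 and -0.19. On 7p the exponent was -0.93 and -1.07 in the KO libraries, -0.79 and -0.77 in the KD libraries and -0.67 in the control. On 8p it was -0.89 and -0.84 in the KO libraries, -0.62 and -0.60 in the KD libraries and -0.55 in the control. In both arms the KD libraries lay between KO and the control. On 11q the KO libraries had -1.04 and -0.90, the KD libraries -0.66 and -0.66 and the control -0.66, so that KD and control were close together. On 5p the values were -0.81 and -0.97 in the KO libraries, -0.76 and -0.73 in the KD libraries and -0.59 in the control. Against KD, the largest differences after 19q were those of 11q (-0.30), 8p (-0.26), 2q (-0.24) and 9q (-0.22). Over 10 to 26 Mb alone these were -0.01, -0.01, -0.06 and -0.16, and the KO and KD libraries overlapped on 11q, 8p and 2q. On 2q the exponent was -0.999 and -0.92 in the KO libraries and -0.71 and -0.73 in the KD libraries, and on 9q it was -0.98 and -0.92 in the KO libraries and -0.73 and -0.73 in the KD libraries. The calls of 2q and 9q against KD were lost without KD replicate 1 (adjusted p = 0.070 for each) and without KD replicate 2 (0.060 and 0.068), and that of 8p without KD replicate 2 (0.060). Against the control, the calls of 7p and 5p were lost without the bins at strong pairs (adjusted p = 0.053 and 0.062) and that of 5p also in recovered contacts (0.074). In KD, 16q, 12p and 5p had the smallest p against the control and did not pass (differences of -0.20, -0.16 and -0.16, adjusted p = 0.096, 0.19 and 0.19).

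**Figure D3:**
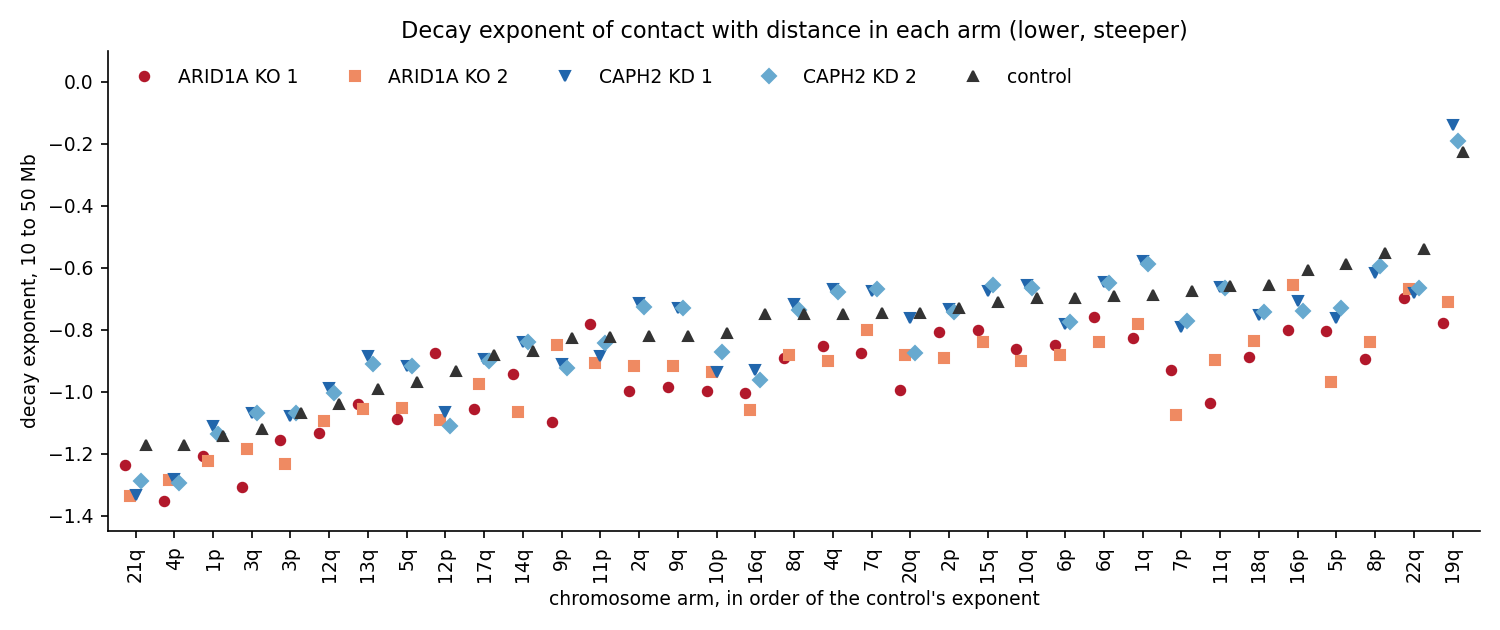
Decay exponent of contact with distance from 10 Mb to 50 Mb, or to the last distance with 5 pairs on shorter arms (26 Mb on 19q), on each of the 35 arms that could be fitted, ordered by the control's value. Points are libraries, and lower means steeper. KO points lie below the control on 33 arms, KD points lie on both sides of it, and 19q stands apart with KO libraries at -0.78 and -0.71 against -0.23 in the control.

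The share of a chromosome's cis contact that falls in the 10 to 50 Mb range of an arm differed widely between arms. The 3 highest shares of the own chromosome's cis signal in the control were on 14q, 13q and 15q, long arms of acrocentric chromosomes that here make up the whole chromosome, and the 3 lowest on 17p, 19p and 18p, among the shortest arms. On 14q the share was 21.9% and 18.4% in the KO libraries, 20.4% and 20.4% in the KD libraries and 22.2% in the control. On 13q it was 20.2% and 19.9% in the KO libraries, 20.2% and 20.03% in the KD libraries and 21.7% in the control. On 15q it was 19.8% and 17.3% in the KO libraries, 17.6% and 17.7% in the KD libraries and 20.004% in the control. The neighbours in this order, 14q and 13q, changed places in KO replicate 2. At the other end, 18p with only 10 member pairs had 0.219% and 0.227% in the KO libraries, 0.204% and 0.206% in the KD libraries and 0.245% in the control. On 17p the share was 1.42% and 1.13% in the KO libraries, 1.04% and 1.03% in the KD libraries and 1.27% in the control, and on 19p it was 1.47% and 1.18% in the KO libraries, 1.07% and 1.08% in the KD libraries and 1.26% in the control. On both arms the 2 KO libraries lay on opposite sides of the control.

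Across arms, KD libraries were low everywhere and KO libraries on most arms, and no arm passed the test against the control. Both KD libraries lay below the control on 39 of 39 arms, against 62.2% of the 156 arm and distance classes, with a median log2 difference of -0.15 (all classes -0.04) and values from -0.30 to -0.07. Both KO libraries lay below it on 32 of 39 arms, against 44.9% of all classes, with a median of -0.12 (all classes -0.05). KO replicate 2 was below the control on 39 arms and KO replicate 1 on 32, and the arms where KO replicate 1 was above were 1p, 11p, 12p, 16q, 17p, 19p and 20p. None of the 39 arms was called by limma in KO or in KD (0% of 156 classes called in each), and 9 and 5 arms had an unadjusted p under 0.05. In recovered contacts KD was again below the control on 39 arms, but KO was below on 21 and above in both libraries on 6p, 9q, 17p, 18p and 19p. So the direction of KO on single arms depends on the balancing.

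The smallest p for KO against control were on 19q, 5q and 6q (log2 differences of -0.19, -0.15 and -0.13, limma adjusted p = 0.20, 0.20 and 0.21), which did not pass. On 19q the share was 6.79% and 6.50% in the KO libraries, 7.18% and 7.19% in the KD libraries and 7.59% in the control. On 5q it was 14.3% and 14.1% in the KO libraries, 14.6% and 14.7% in the KD libraries and 15.7% in the control, and on 6q it was 15.6% and 15.8% in the KO libraries, 16.1% and 16.2% in the KD libraries and 17.1% in the control. On all 3 arms the order of the groups was KO, KD, control, with no overlap. Between KD and control, 18p, 9p and 13q had the smallest p (-0.26, -0.16 and -0.11, adjusted p = 0.55 each). On 9p the share was 5.01% and 4.96% in the KO libraries, 4.84% and 4.85% in the KD libraries and 5.41% in the control.

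KO and KD overlapped on 22 of the 39 arms. Both KO libraries were above both KD libraries on 10 arms (25.6%), against 28.8% of the 156 classes, and below them on 7 (17.9%), against 25%, so neither count exceeded that over all classes. The 10 arms were 1p, 4p, 7p, 9p, 11p, 12p, 17p, 18p, 19p and 20p, and the 7 were 1q, 2q, 4q, 5q, 6q, 18q and 19q. The test called 0 of the 39 arms and 4.49% of the 156 classes, and 3 arms had an unadjusted p under 0.05. These were 18p, 12p and 19q, with log2 differences of 0.12, 0.28 and -0.11 (adjusted p = 0.20, 0.20 and 0.23). On 12p the share was 2.25% and 1.94% in the KO libraries, 1.72% and 1.72% in the KD libraries and 2.10% in the control. In recovered contacts KO was above KD on 19 arms and below on 12, and 9p changed from above to below. The arms above then included the long arms 9q, 15q, 17q and 20q, so a split into short and long arms did not hold.

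**Figure D4:**
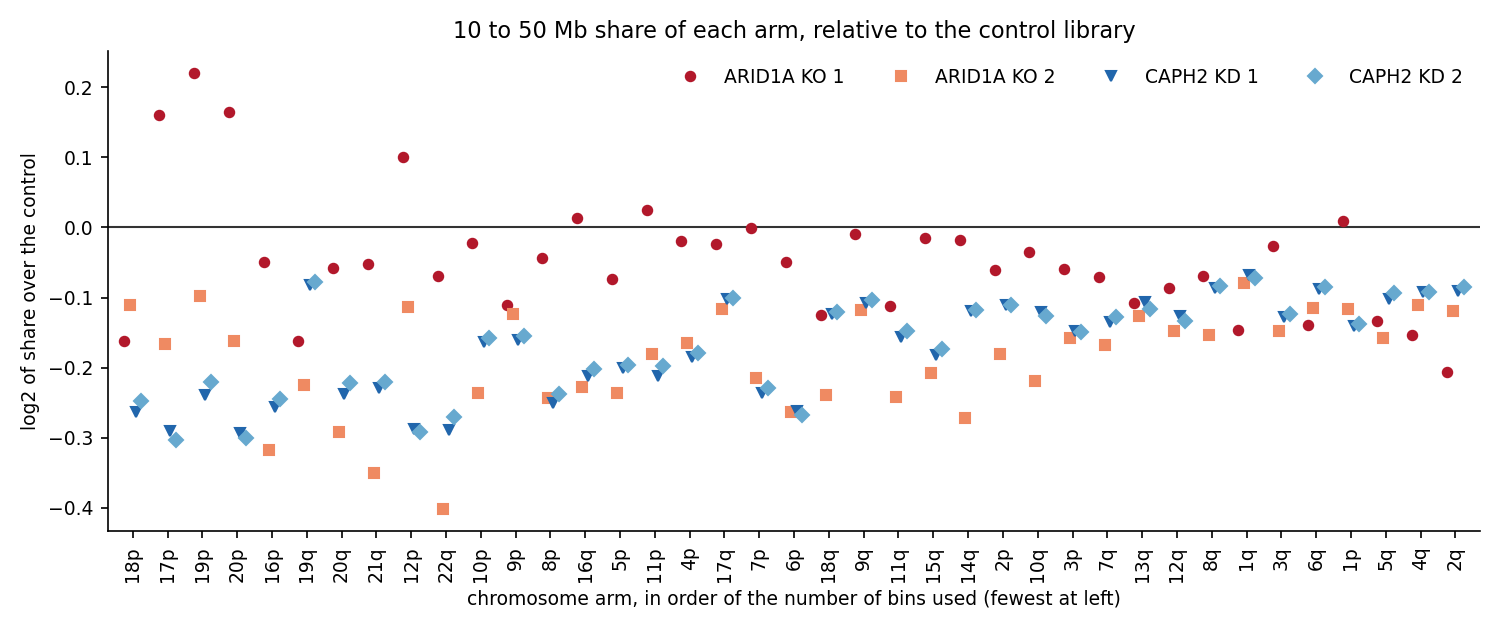
Log2 of the 10 to 50 Mb share of each of 39 arms over the control's share, with arms in order of the number of bins used. Points are single KO and KD libraries and the line at 0 is the control. KD points lie below 0 on every arm and tend to be lower on shorter arms, and KO replicate 1 lies above 0 on 7 arms.

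By chromosome group, the arms of the small gene-rich chromosomes 16, 17, 19, 20 and 22 (9 arms) had a median log2 difference from the control of -0.11 in KO and -0.23 in KD. The 10 arms of the large chromosomes 1 to 5 had -0.12 in both KO and KD. The 5 acrocentric arms had -0.14 and -0.18, and the 5 arms of chromosomes 4, 13 and 18, which are poor in genes, -0.13 and -0.12 in KO and in KD. All 39 arms together had -0.12 and -0.15. Both KO libraries were below the control on 5 of the 9 small gene-rich arms, 9 of the 10 large, 5 of the 5 acrocentric and 5 of the 5 gene-poor arms. Over all 39 arms they were below it on 32. The lists overlap: chromosome 22 is also acrocentric, 13 is in the acrocentric and the gene-poor list, and 4 is in the large and the gene-poor list. No arm of any list passed the test in any comparison. Arm length moved with these values: the 21 arms with 60 or fewer bins had a median of -0.13 in KO and -0.23 in KD, and the 18 longer arms -0.12 and -0.11. Whether length or gene content goes with the lower KD values was not tested.

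On 25 arms long enough for all 4 distance bands the pattern of the whole genome recurred. Arms of the same library share its errors, so the counts of arms below are not separate replications. At 40 to 50 Mb both KO libraries were below the control on 25 of 25 arms (median log2 difference -0.24), and at 10 to 19 Mb on 9 (median -0.05). In the bands between, they were below it on 20 arms at 20 to 29 Mb and on 24 at 30 to 39 Mb. For 24 of the 25 arms the KO difference was highest at 10 to 19 Mb. The lowest fell at 30 to 39 Mb on 11 arms and at 40 to 50 Mb on 14. In KD the lowest difference fell at 20 to 29 Mb on 15 arms, at 40 to 50 Mb on 7 and at 10 to 19 Mb on 3. Both KD libraries were below the control on 25 of 25 arms in each band up to 39 Mb and on 20 at 40 to 50 Mb, with 4 above. Both KO libraries were above both KD libraries on 21 of 25 arms at 10 to 19 Mb and below them on 19 at 40 to 50 Mb. At 20 to 29 Mb they were above on 6 and below on 0, and at 30 to 39 Mb above on 1 and below on 17. Of the 156 arm and distance classes, 28.8% had both KO libraries above both KD libraries and 25% below. Below the control were 44.9% of these classes in both KO libraries and 62.2% in both KD libraries.

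The lower share at 10 to 50 Mb stood beside a higher share of short contacts. Both are parts of the same total, of which pairs at 1 to 4 Mb held 62.1% in the control. A lower share at 10 to 50 Mb therefore largely goes with a higher short share by construction. Neither the short share nor the ratio of both is separate support. On 33 of 39 arms both KO libraries, and on 39 of 39 both KD libraries, lay above the control in their share at 1 to 4 Mb (median log2 difference 0.05 and 0.04). Of all 156 arm and distance classes, 26.9% lay above the control in both KO libraries and 37.2% in both KD libraries. Beyond 50 Mb the median over 22 arms was -0.24 in KO and -0.06 in KD, and for pairs outside an arm, mostly between the 2 arms of a chromosome, it was -0.21 in KO and 0.05 in KD over 17 chromosomes. The ratio of signal at 10 to 50 Mb over that at 1 to 4 Mb was below the control on 33 arms in both KO libraries and on 39 in both KD libraries, with a median log2 difference of -0.19 in each. No arm passed the test of this ratio (limma, 0% of 39 called in each of the 3 comparisons, with 8, 2 and 1 arms at an unadjusted p under 0.05). The smallest p were on 18p, 19q and 2q for KO against control (log2 differences of -0.24, -0.25 and -0.24, adjusted p = 0.24 each). On 2q the ratio was 0.349 and 0.365 in the KO libraries, 0.385 and 0.388 in the KD libraries and 0.421 in the control. For KD against control they were on 18p, 12p and 6p (-0.29, -0.33 and -0.30, adjusted p = 0.24 each), and for KO against KD on 12p, 17p and 19p (0.27, 0.33 and 0.31, adjusted p = 0.76 each).

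Compartment pattern was read at these distances with a score from contacts between chromosomes, which the member pairs do not enter. Bins with more contact to other chromosomes were given the positive sign and called A, and the outer 30% of bins of each arm on each side were compared (4658 A-A, 5487 B-B and 12559 A-B member pairs). Observed over expected signal, the expectation being the mean at the same arm and distance, was 1.12 and 1.15 for A-A pairs in the KO libraries, 1.16 and 1.17 in the KD libraries and 1.14 in the control. For B-B pairs it was 1.496 and 1.563 in the KO libraries, 1.59 and 1.63 in the KD libraries and 1.58 in the control. For A-B pairs it was 0.612 and 0.547 in the KO libraries, 0.521 and 0.504 in the KD libraries and 0.547 in the control. So B-B contact was enriched more than A-A contact in all 5 libraries. In recovered contacts this order held in the KD libraries and the control but turned in the KO libraries, where A-A pairs had 1.38 and 1.44 and B-B pairs 1.15 and 1.18.

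The compartment contrast, the log2 of like over unlike contact, was 1.11 and 1.33 in the KO libraries, 1.42 and 1.49 in the KD libraries and 1.33 in the control. KO replicate 1 was low, KO replicate 2 lay at the control, and both KD libraries were above it. The difference from the control was -0.11 for KO on the mean of both libraries and -0.00054 without KO replicate 1, and with all bins split by sign KO replicate 2 lay above the control (0.584 and 0.730 in the KO libraries, 0.769 and 0.796 in the KD libraries and 0.711 in the control). Between KO and KD it was -0.23, and -0.13 without KO replicate 1. The exact permutation test gave p = 0.667 for KO against control, and p = 0.333 for KD against control and for KO against KD (two-sided). By arm, both KD libraries were above the control on 29 of 39 arms and below on 5, both KO libraries were below it on 23 and above on none, and both KO libraries were below both KD libraries on 29 and above on none. No arm was called by limma in any of the 3 comparisons (0% of 39 each, with 4, 0 and 9 arms at an unadjusted p under 0.05). The smallest p for KO against control were on 17p, 22q and 21q (-0.51, -0.51 and -0.42, adjusted p = 0.23 each), and for KO against KD on 17p, 17q and 22q (-0.58, -0.47 and -0.56, adjusted p = 0.056 each). On 17p the contrast was 1.00 and 0.99 in the KO libraries, 1.505 and 1.648 in the KD libraries and 1.501 in the control, and on 22q it was 0.96 and 0.76 in the KO libraries, 1.42 and 1.43 in the KD libraries and 1.37 in the control. The KO libraries stood below the other 3 on both arms, but with all bins split by sign the differences of 17p and 22q from the control were 0.09 and 0.45. For KD against control 18p, 12q and 12p had the smallest p (-0.62, 0.27 and 0.27, adjusted p = 0.87 each).

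The gap in contrast between KO and KD was widest at the near end of the range. From 10 to 19 Mb the contrast was 1.00 and 1.25 in the KO libraries, 1.37 and 1.45 in the KD libraries and 1.28 in the control. From 40 to 50 Mb it was 1.36 and 1.498 in the KO libraries, 1.55 and 1.60 in the KD libraries and 1.46 in the control. The KO libraries were both below the control in the nearest band and on either side of it in the farthest, and the KD libraries were above it in both. A-A contact was more enriched at 40 to 50 Mb, with 1.38 and 1.45 in the KO libraries, 1.41 and 1.39 in the KD libraries and 1.38 in the control, than at 20 to 29 Mb, with 1.07 and 1.09 in the KO libraries, 1.10 and 1.11 in the KD libraries and 1.08 in the control.

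**Figure D5:**
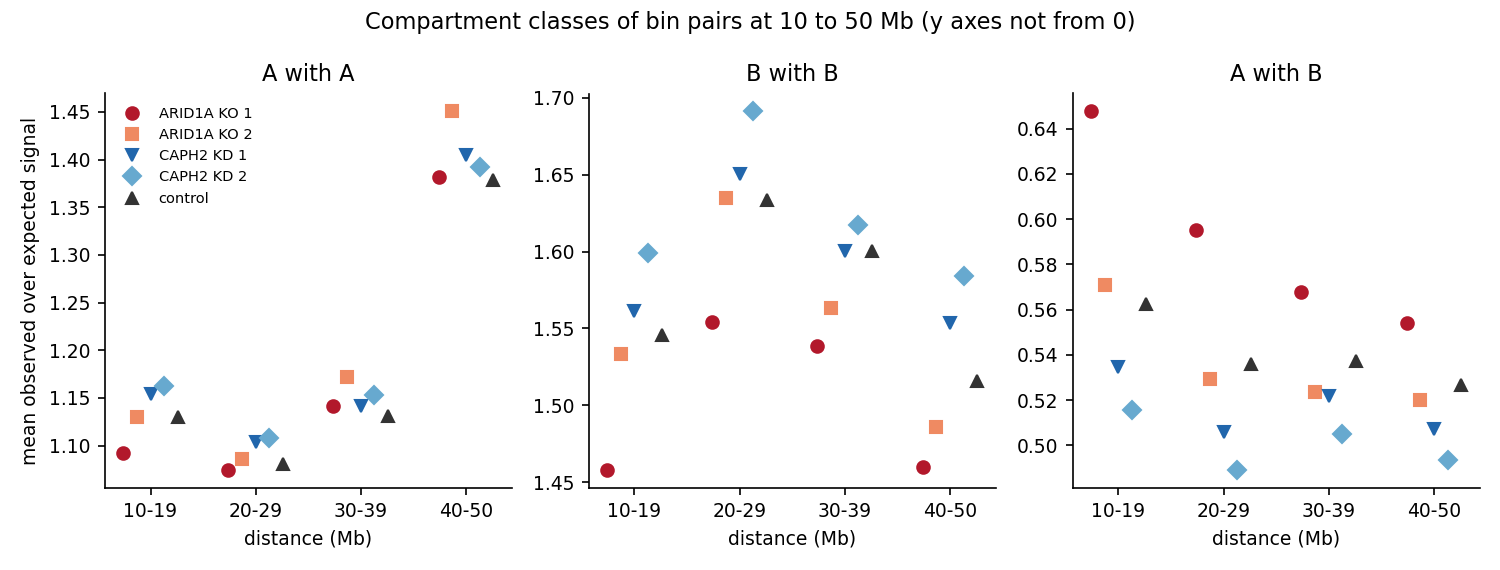
Mean observed over expected signal of A-A, B-B and A-B bin pairs in 4 distance bands, with 1 point per library. The y axes do not start at 0. A-B values are highest in KO replicate 1 and lowest in the KD libraries in every band, and A-A values are highest at 40 to 50 Mb.

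For single bins, the share of a bin's own cis signal that lies at 10 to 50 Mb was followed over 2400 bins with at least 20 member partners. Its median was 18.9% and 17.6% in the KO libraries, 18.2% and 18.2% in the KD libraries and 19.9% in the control. Both KD libraries were below the control in 96.3% of bins, and both KO libraries in 68.9%. Among A bins of the outer 30% (732 bins) both KO libraries were below the control in 52.9%, and among B bins (723) in 76.2%. In KD these percentages were 94.9% and 97.4%. The median log2 difference from the control was -0.03 and -0.11 in A bins and -0.09 and -0.20 in B bins of the KO libraries, and -0.13 and -0.13 in A bins and -0.14 and -0.13 in B bins of the KD libraries. Across bins, the Spearman correlation of the compartment score with the log2 difference was 0.31 and 0.26 in the KO libraries and -0.04 and -0.05 in the KD libraries. This is a description over 2400 bins that share libraries and neighbours. Bins within 10 Mb of the arm's inner end had medians of -0.07 and -0.22 in the KO libraries and -0.19 and -0.19 in the KD libraries, and bins 30 Mb or more from it -0.09 and -0.15 in the KO libraries and -0.11 and -0.11 in the KD libraries.

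No bin passed limma in any of the 3 comparisons (0% of 2400 each), while 359, 303 and 251 bins had an unadjusted p under 0.05. The smallest p for KO against control were at chr18:24000001-25000000, chr11:66000001-67000000 and chr6:67000001-68000000 (hg19), with log2 differences of -0.36, 0.34 and -0.36 (adjusted p = 0.32 each). In the bin of chromosome 18, on 18q, the share was 14.4% and 14.0% in the KO libraries, 18.3% and 17.8% in the KD libraries and 18.3% in the control. For KD and control they were at chr12:29000001-30000000, chr11:69000001-70000000 and chr9:38000001-39000000, with -0.39, -0.40 and -0.37 (adjusted p = 0.35 each). For KO against KD all 3 lay within 5 Mb of 11q, at chr11:66000001-67000000, chr11:65000001-66000000 and chr11:69000001-70000000, with 0.58 ± 0.046, 0.60 ± 0.066 and 0.42 ± 0.049 (adjusted p = 0.31, 0.36 and 0.36). These are A bins, with compartment scores of 2.36, 2.31 and 1.86. At chr11:66000001-67000000 the share was 8.98% and 9.01% in the KO libraries, 5.93% and 6.07% in the KD libraries and 7.13% in the control, and at chr11:65000001-66000000 it was 8.82% and 8.66% in the KO libraries, 6.04% and 5.47% in the KD libraries and 6.65% in the control. KO libraries were highest and KD libraries lowest in both, with no overlap. In recovered contacts the 3 differences between KO and KD shrank to 0.09, 0.15 and 0.03, and that of chr11:66000001-67000000 between KO and control turned to -0.12.

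No single bin pair passed the test. Of the 62934 pairs none was called by limma in any of the 3 comparisons (0% of 111579 same-arm pairs each), and 3668, 1942 and 5349 had an unadjusted p under 0.05. The log2 difference was negative in 65.2% of pairs for KO against control, in 66.8% for KD against control and in 51.7% for KO against KD. Member pairs without any signal numbered 277 and 458 in the KO libraries, 103 and 32 in the KD libraries and 102 in the control. The KO libraries also had the fewest contacts in the median member pair (22 and 19, against 40 and 61 in KD and 40 in the control). Whether the number of empty pairs differs beyond depth was not tested.

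The spread among pairs at a given distance was similar in all libraries, and a few pairs stood out in each of them. For single pairs the expectation was the mean over all arms at the same distance, not that of the same arm. Differences in level between arms thus remain in these values. Observed over expected signal was above 2 in 5.08% and 5.79% of member pairs in the KO libraries, 5.22% and 5.31% in the KD libraries and 4.74% in the control. It was above 5 in 18 and 17 pairs in the KO libraries, 15 and 15 in the KD libraries and 14 in the control. The highest of all joined chr7:73000001-74000000 to chr7:116000001-117000000 (hg19) on 7q, 43 Mb apart, with 50.3 and 60.7 times the expected signal in the KO libraries, 47.9 and 45.1 in the KD libraries and 43.9 in the control. It rested on 670 to 1185 recovered contacts per library. Of the pairs around it, 2 were measured 1 bin away, with 0.340 and 5.15 times the expected signal, and 7 at 2 bins, from 0.235 to 4.005 with a median of 1.32. Most pairs around it were not measured, so how far the enrichment extends is not known.

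The other pairs in that order were on 2p, 17q and 20q. The pair of chr2:34000001-35000000 and chr2:45000001-46000000 had 15.2 and 13.5 times the expected signal in the KO libraries, 12.5 and 12.2 in the KD libraries and 11.8 in the control. The pair of chr17:35000001-36000000 and chr17:59000001-60000000 had 10.8 and 11.9 in the KO libraries, 13.8 and 14.2 in the KD libraries and 11.9 in the control. On 20q, chr20:34000001-35000000 and chr20:48000001-49000000 reached 11.5 and 13.3 in the KO libraries, 12.5 and 12.7 in the KD libraries and 11.1 in the control. The fifth, chr2:35000001-36000000 with chr2:46000001-47000000, is a neighbour of the pair on 2p above, and had 9.39 and 7.58 in the KO libraries, 11.1 and 11.1 in the KD libraries and 9.92 in the control. All 5 were enriched in every library of all 3 groups, which are the same libraries whose mean was used to pick them.

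More widely, 153 member pairs had a mean over libraries of more than 3 times the expected signal, again with the expectation taken over all arms. Both bins had a negative (B) score in 65.4% of them, against 37.2% of all member pairs. Both were positive in 27.5%, against 17.4%, and opposite signs made up 7.19%, against 45.3%. The arms with the most such pairs were 6q with 26, 7q with 17, 8q with 16, and 2p and 12q with 15 each. In that order these arms held 3239, 2429, 2829, 2419 and 2706 of the 62934 member pairs. The counts also follow the level of an arm, so they do not set these arms apart, and no difference between arms was tested.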

How the data were processed

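In situ Hi-C reads were aligned to hg19 with Bowtie2, per the submitters' processing notes, and which program binned and balanced them is not given in the sources used here. From these reads the authors deposited 1 matrix of contact signal per library between bins of 1 Mb, balanced within the library as read from the values, so values were compared only as shares or ratios inside each library. It evens out bin yield and copy number, and can thus change the share of a bin or arm. Whole contacts were recovered from the signal by estimating a factor per bin. Between 98.1% and 99.2% of the nonzero values came out whole (tolerance 0.05), but only 88.9% to 95.2% of those in cis between different bins, which are the values used here, and most others fell midway between whole numbers. A factor too small by a whole divisor would go unseen, and 1 to 30 bins per library whose contacts were all multiples of a small number were rescaled.

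Of 2893 autosomal bins, 2667 were measured in all libraries and 32 with under 0.25 of the control's median recovered total were left out (2635 used). The filter used recovered totals because balanced totals are alike, a choice made after the files were seen. Chromosome X was not used. The tests were planned for either counts or signal, and since the files hold signal, limma 3.58.1 (lmFit and eBayes, R 4.3.3) was run on log2 shares, on log2 of ppm plus 0.1 (bin pairs) or on exponents and contrasts as they are. The fit held all 5 libraries in 3 groups, with 2 residual degrees of freedom per feature, to which eBayes added those shared over features (70 in all for arm exponents, 32.7 for distances). The control is 1 library, so its spread is assumed to be that of the KO and KD groups. Adjusted p-values are Benjamini-Hochberg over each whole table. Shares and exponents were computed in Python 3.11.15 (numpy 2.4.6, scipy 1.17.1, pandas 2.3.3). The limma step was also run on simulated data, with independent noise of a common spread in all features and groups. Features of the same library move together here, so that run does not vouch for the p-values.

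Exponents needed 5 pairs per distance. Named were the arms with the 3 highest and 3 lowest control shares, up to 5 called arms per direction (or the 3 with the smallest p), the distances 10, 20, 30, 40 and 50 Mb, up to 3 called bins per direction (or the 3 with the smallest p), and the 5 pairs with the highest mean observed over expected, with 1 per 5 Mb square. Members, lists and tests were chosen with earlier results of these data known. Other settings were 44 chosen from the labels, and 2 added after seeing the data: the KD libraries averaged to 1 sample, and arm exponents over the same distances in all arms. Deviations of same-numbered KO and KD libraries correlated at 0.02 over bin pairs and -0.18 over arms, so the numbers were not taken as pairs.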

Additional observations from a re-analysis of the deposited data

Results flagged for a closer look

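The decay exponent from 10 to 50 Mb over all arms lay on opposite sides of the control in the perturbed cells. It was lower than the control's -0.84 in both KO libraries (-0.98 and -0.95) and higher in both KD libraries (-0.785 and -0.791), a difference of -0.18 between KO and KD. Over all 35 fitted arms the higher KD exponent did not recur as a rule: both KD libraries were steeper than the control on 18 and shallower on 16 (median difference -0.0047). Nearly all of the shallower arms were among the 22 fitted out to 50 Mb, while the other 13 fits ended earlier. The higher KD exponent thus recurred on most arms that covered the whole range. The lower KO exponent recurred on 33 of 35 arms. The compartment contrast of the same bin pairs was 1.11 and 1.33 in the KO libraries, 1.42 and 1.49 in the KD libraries and 1.33 in the control, a difference of -0.23 between KO and KD. KO replicate 2 was below the control by a difference of only -0.00054. With all bins split by sign it lay above the control (0.730 against 0.711), so the opposite direction of the genome-wide value in KO rests on KO replicate 1. Without that library the difference between KO and KD was -0.13. No single arm passed the limma test of that difference (0 of 39, with 9 at an unadjusted p under 0.05). By arm, both KO libraries were below the control on 23 of 39 arms, overlapped it on 16 and were above it on none.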

How the results depend on the processing

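The log2 difference of the genome-wide share from the control was negative for KO and for KD under each alternative run. For KO it was -0.27 with the diagonal in the denominator and -0.064 with a denominator from 2 Mb. For KD it was -0.12 in recovered contacts, -0.14 without bins at strong pairs, -0.18 with the diagonal, -0.093 from 2 Mb and -0.19 with contacts between chromosomes in the denominator. KO against KD (0.0039) had no stable sign: -0.031 in recovered contacts, -0.00016 without bins at strong pairs, -0.093 with the diagonal, 0.060 with contacts between chromosomes, and -0.035 to 0.043 with 1 library left out. The difference in the genome-wide exponent kept its sign in each comparison, at 0.046 for KD against control without bins at strong pairs and -0.20 for KO against KD in recovered contacts.

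Counts of calls depended on which libraries gave the spread. Leaving out 1 library gave 0 to 39 arm shares for KO against control, 0 to 39 for KD against control and 0 to 36 for KO against KD. Direction turned too: KO against KD had 7 arm shares higher and 20 lower without KO replicate 1, but 30 higher and 6 lower without KO replicate 2. Leaving out 1 library gave 0 to 41, 0 to 35 and 0 to 40 distances, 0 to 1764, 0 to 1889 and 0 to 1386 bins, 0 to 11, 0 to 1 and 0 to 27 arm contrasts, 6 to 29, 0 to 20 and 2 to 28 arm exponents, and 0 to 39, 0 to 39 and 0 to 37 arm ratios in the same order. The high counts came without a KO library, when the spread is that of the KD libraries alone, and the low counts without a KD library. For KD against control, 39 arm shares were called with only those 2 groups in the fit. For KO against KD, arm shares had 4 calls in recovered contacts and 1 with a denominator from 2 Mb.

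Distances called for KO against control numbered 0 without the bin filter, 0 without bins at strong pairs and 0 with the KD libraries averaged to 1 sample, and those for KO against KD 0 and 0 in the last 2. Arm exponents called for KO against control numbered 4 without bins at strong pairs and 6 with the KD libraries averaged, and those for KO against KD 11 and 3. Arm contrasts had 2 calls for KO against control and 4 against KD with compartments from the control within chromosomes, and 5 for KO against KD in recovered contacts. Fitted with the replicate block, KO against KD had 4 called arm shares, 46 bins and 8 arm exponents, but the replicate numbers do not pair these libraries, so this does not describe a weaker or stronger effect.

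Among named features, the sign turned for the contrast with all bins split by sign (17p 0.094 and 22q 0.45 for KO against control, 22q 0.42 for KO against KD), for chr11:66000001-67000000 in KO against control in recovered contacts (-0.12) and at 10 Mb, where leaving out 1 library gave -0.082 to 0.027 for KO against control and -0.00056 to 0.11 for KO against KD. The cause of these changes was not tested. The KO libraries had 19 to 22 contacts in the median member pair, which limits single pairs and short arms such as 18p.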
